A study of Homo sapiens with 8 samples.

Results

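The 36 genes described here are the transcriptional stress regulators, stress effectors, amino acid enzymes, amino acid transporters and cytosolic tRNA synthetases that respond to amino acid shortage in many cell types. They were taken by symbol from a table of 63677 gene rows, in which they filled 42 rows, because VARS was listed 7 times and 6 of its rows held no counts. Of the 36, 35 were expressed highly enough to be tested, among 15646 genes tested. The exception was ALDH1L2, a mitochondrial folate enzyme, with 0 to 4 counts in a library.

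RNA came from TAL1-FKBP12 Jurkat cells, an established human line of T-cell leukaemia (T-ALL), in which TAL1, a transcription factor of this leukaemia, is fused to the FKBP12 tag. All groups carried this fusion, and cells without it were not compared. The groups were dTAG-13, GSI, the combination of dTAG-13 and GSI, and DMSO, the solvent control, with 2 libraries each, collected after 24 h. dTAG-13 brings a protein with the FKBP12 tag to the cereblon ubiquitin ligase for degradation. GSI commonly stands for gamma-secretase inhibitor, and such drugs stop NOTCH receptors from being cut into their active form. The labels give no doses and do not say whether the fusion line was a single clone or whether replicates were separate cultures, so p-values here reflect only how these libraries vary, which may be technical variation.

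When amino acids run short, uncharged tRNAs activate the kinase GCN2, which phosphorylates the initiation factor eIF2alpha. This lowers translation in general and raises translation of ATF4, a transcription factor that pairs with C/EBP proteins and raises genes for amino acid synthesis, import and tRNA charging. Leukaemic T cells take up large amounts of amino acids for growth, and asparagine synthetase is well known in this disease because lymphoblasts with little of it are sensitive to asparaginase.

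The libraries held between 17544319 and 22180009 counts, and the 36 genes held 0.588% to 0.667% of the counts of a library. The 10 T-lineage markers summed to 2580 to 3182 CPM (counts scaled for depth and TMM factor) and all 10 had a mean over 1 CPM. The myeloid markers summed to 0.653 to 1.83 CPM, and 0 of 6 had a mean over 1 CPM. The NOTCH target DTX1 had 18.3 and 18.9 CPM with GSI and 19.7 and 17.0 CPM with the combination, against 137.7 and 154 CPM with DMSO. HES1, another NOTCH target, had 2.39 and 3.28 CPM with GSI, against 12.7 CPM in each DMSO library. MYC, also a NOTCH target, had 170.1 and 189.7 CPM with GSI and 200.2 and 225 CPM with the combination, against 349 and 340.1 CPM with DMSO. TAL1 transcripts, at 145 and 147 CPM with dTAG-13 against 154 and 166 CPM with DMSO, do not check the degradation, which acts on the protein.

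The replicates of a treatment did not stand alike for these genes. Replicate 2 was above replicate 1 for 22 of the 35 tested members in dTAG-13, 28 in GSI and 33 in the combination, against 17 in DMSO. The median difference between replicate 2 and replicate 1 on the log2 CPM scale was 0.08 in dTAG-13, 0.12 in GSI and 0.18 in the combination, against -0.01 in DMSO, while the median over all genes tested lay within 0.0014 of 0 in every group. GSI replicate 1 and combination replicate 1 were therefore the low libraries for these genes. The members' median and count below 0 for the averaged effect of GSI are given with and without both. Replicates were not copies of each other, since their counts differed with a chi-square per degree of freedom of 4.45 to 13.4.

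**Figure D1:**
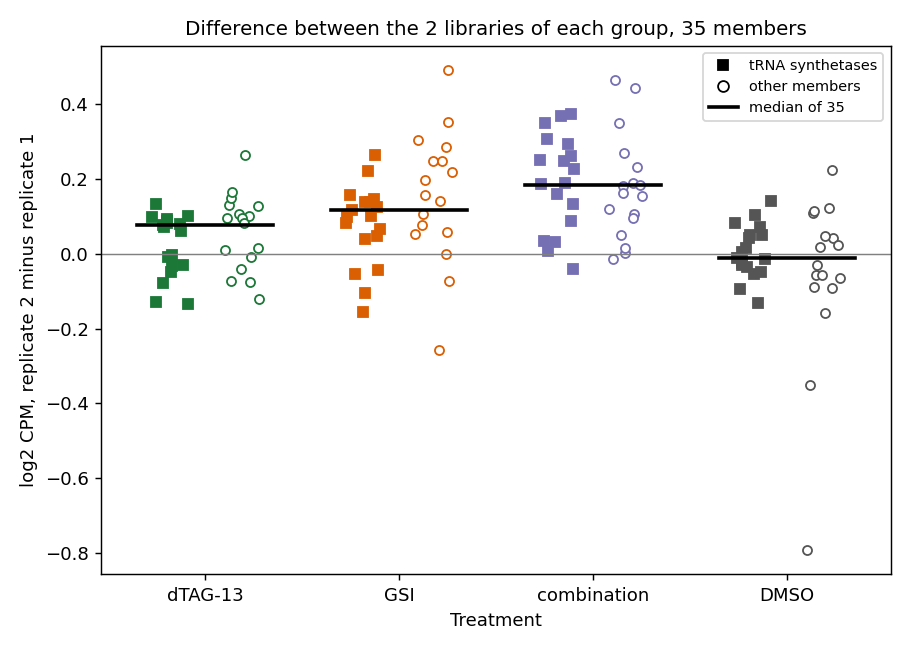
Each point is 1 of the 35 tested genes, and the y axis is its log2 CPM in replicate 2 minus that in replicate 1 of the same treatment. The bars mark medians of 0.08 in dTAG-13, 0.12 in GSI and 0.18 in the combination, against -0.01 in DMSO, and the lowest point in DMSO is DDIT3.

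Per length, these genes spanned a wide range in the DMSO libraries. On a scale of CPM per kilobase of exon, ATF4 was highest at 299.9 ± 8.51 and SLC7A11, the cystine transporter, was lowest of the tested genes at 1.03 ± 0.012 (SD, n = 2). The next highest were KARS at 166 ± 0.402 and SLC7A5, a large neutral amino acid transporter, at 144 ± 8.73. The 18 synthetases lay between HARS at 23.8 ± 0.271 and KARS. ASNS, which makes asparagine, lay at 6.94 ± 0.222, and the stress effectors CHAC1 and SESN2 at 3.32 ± 0.143 and 5.54 ± 0.427. ASNS was thus below each of the 18 synthetases on this scale, while DDIT3 at 5.71 ± 2.18 and SESN2 did not differ beyond the spread of DDIT3.

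Averaged over cells with and without dTAG-13, VARS and LARS, which charge the tRNAs for valine and leucine, fell with GSI. They were the called members, 2 of 35 (5.71%) by edgeR's quasi-likelihood test, and 16 of the 18 synthetases were not called. Over all genes tested in that comparison 6.94% were called in either direction and 3.56% were called lower, so the members' share was near the background. At an unadjusted p under 0.05 there were 12 members, 10 lower and 2 higher, where 21.9% of all genes were. The median log2 fold change of the 35 members was -0.11, against 0.01 over all genes tested, and 31 of 35 lay below 0, as did 7574 of the 15646 genes. The members' median was -0.05, and 24 of 35 lay below 0, without GSI replicate 1 and combination replicate 1. In bulk RNA, fewer cells that express a gene and less RNA per cell cannot be told apart.

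With single pairs of groups, calls were fewer. The combination against DMSO called 1 member, VARS, which was lower, where 1.31% of all genes were called in either direction and 0.767% lower. There, 6 members had an unadjusted p under 0.05 (12.4% of all genes). GSI against DMSO called 0 members, where 1.74% of all genes were called, although 9 members, all lower, had an unadjusted p under 0.05 (14% of all genes). There the Wald test of DESeq2 called VARS, as it did 336 of 15646 genes. The combination against dTAG-13 called 0 members by either tool, where edgeR's quasi-likelihood test called 1.21% of all genes, and 8 members had an unadjusted p under 0.05 (13% of all genes). In dTAG-13 against DMSO 0 members were called by either tool and 0 had an unadjusted p under 0.05, where 0.0192% of all genes were called and 3.84% had such a p.

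**Figure D2:**
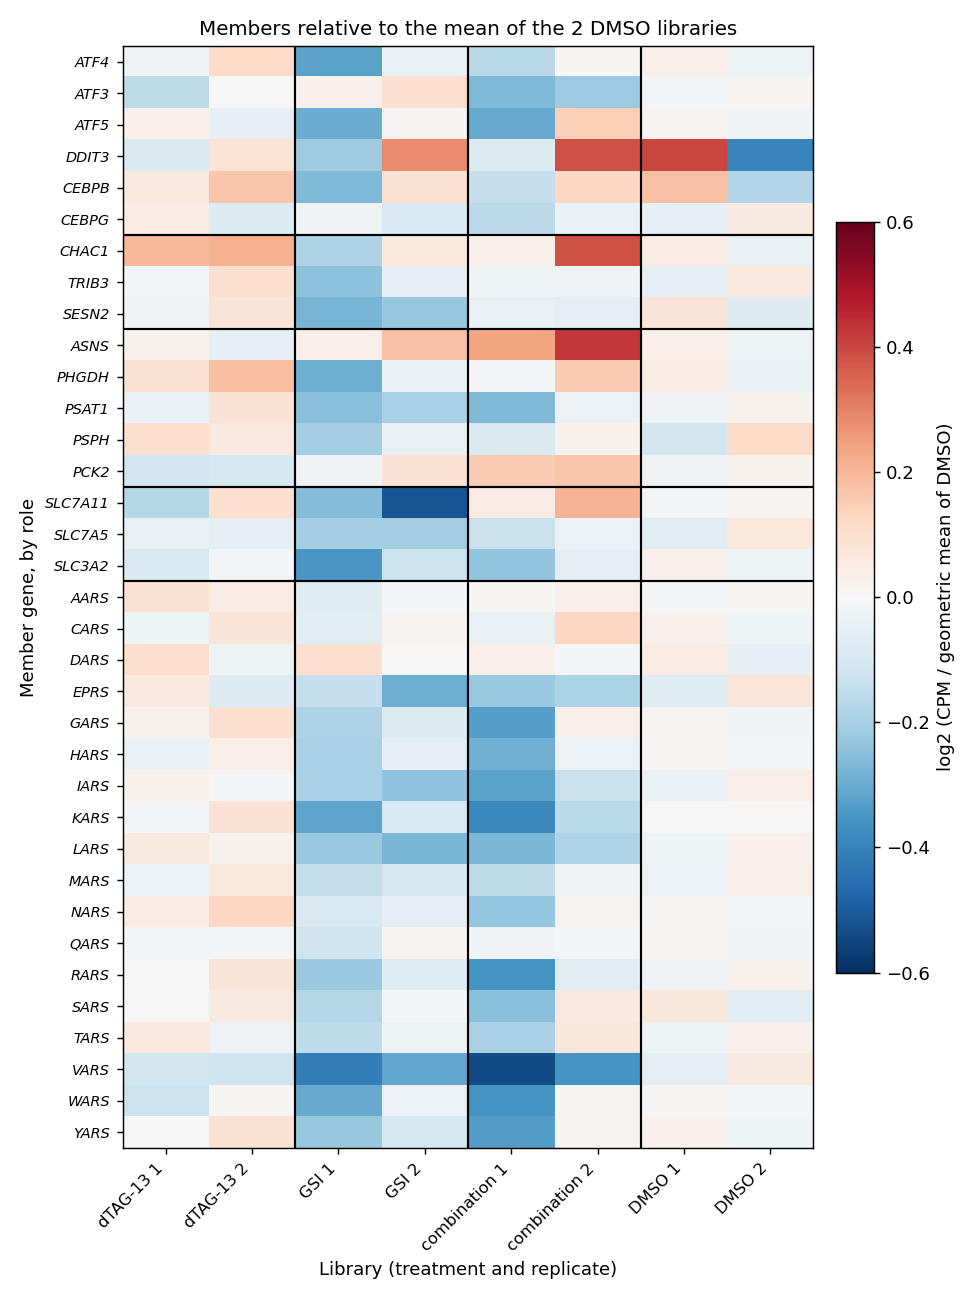
Rows are the 35 tested genes grouped by role (regulators, stress effectors, enzymes, transporters and synthetases from top to bottom) and columns are the 8 libraries. Colour is the log2 ratio of the CPM to the geometric mean of the DMSO libraries, and the darkest blue cells are in VARS and SLC7A11, in libraries with GSI.

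VARS, the valyl-tRNA synthetase, had the largest GSI effect among the 18 synthetases. It had 204 and 203 CPM with dTAG-13, 165 and 178 CPM with GSI, and 152 and 172 CPM with the combination, against 212 and 228 CPM with DMSO. All 4 libraries with GSI lay below all 4 without it, and the dTAG-13 libraries lay below both DMSO libraries. On the log2 scale VARS fell by 0.34 with GSI on average over both dTAG-13 states (SE 0.06, adjusted p = 0.00581 by edgeR's quasi-likelihood test). In the combination it fell by 0.44 against DMSO (SE 0.09, adjusted p = 0.0290 by the same edgeR test), to 0.735 of the DMSO level. The log2 fold changes that missed the threshold were -0.36 for GSI against DMSO (adjusted p = 0.0634), -0.33 for the combination against dTAG-13 (adjusted p = 0.111) and -0.12 for dTAG-13 against DMSO (95% interval -0.31 to 0.07), all by edgeR. The combination call was lost without DMSO replicate 1 (adjusted p = 0.162), without DMSO replicate 2 (0.420) and without combination replicate 1 (0.184), and the averaged call without DMSO replicate 2 (0.0591).

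LARS, the leucyl-tRNA synthetase, had 228 and 222 CPM with dTAG-13, 188 and 181 CPM with GSI, and 182 and 194 CPM with the combination, against 216 and 223 CPM with DMSO. Again every library with GSI lay below every library without it, and the dTAG-13 and DMSO libraries overlapped. LARS fell by 0.26 on the log2 scale with GSI on average (SE 0.05, adjusted p = 0.0156 by edgeR's quasi-likelihood test). The log2 fold change was -0.25 for GSI against DMSO (adjusted p = 0.147) and -0.26 for the combination against dTAG-13 (adjusted p = 0.154), neither called by edgeR. The averaged call was lost when any library without GSI was left out, at an adjusted p of 0.0712 without DMSO replicate 1, 0.108 without DMSO replicate 2, 0.0759 without dTAG-13 replicate 1 and 0.0767 without dTAG-13 replicate 2.

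KARS, the lysyl-tRNA synthetase, had 403 and 429.8 CPM with dTAG-13, 325 and 379 CPM with GSI, and 309 and 362 CPM with the combination, against 404 and 405 CPM with DMSO. Its GSI libraries also lay below all libraries without GSI, and replicate 1 was the lower one in both treatments with GSI. The averaged log2 fold change of -0.26 (SE 0.07) missed the threshold (adjusted p = 0.0534 by edgeR's quasi-likelihood test). The Wald test of DESeq2 called KARS (adjusted p = 0.0203), as it did 1057 of 15646 genes in that comparison. Without GSI replicate 1 and combination replicate 1 the averaged log2 fold change was -0.15.

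In 6 of 35 members, or 17.1%, all libraries with GSI lay below all libraries without GSI, a pattern that 8.22% of all genes tested had. These were VARS, LARS, KARS and, named here because of their values, IARS, EPRS and RARS, which charge the tRNAs for isoleucine, for glutamate and proline, and for arginine. IARS had 474 and 464 CPM with dTAG-13, 408 and 395 CPM with GSI, and 373 and 426 CPM with the combination, against 453 and 480.5 CPM with DMSO. The averaged log2 fold changes that missed the threshold in edgeR's quasi-likelihood test were -0.22 for IARS (adjusted p = 0.0520), -0.21 for EPRS (0.0699) and -0.19 for RARS (0.127). The Wald test of DESeq2 called IARS among these, as it did 1057 of 15646 genes. With GSI replicate 1 and combination replicate 1 left out, the same 6 members (17.1%) had both remaining libraries with GSI below the 4 without it. Of all genes 14.8% had that pattern, so the members' share was near the background. Leaving out libraries with GSI can hardly undo a full separation, so this repeat is no further evidence.

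**Figure D3:**
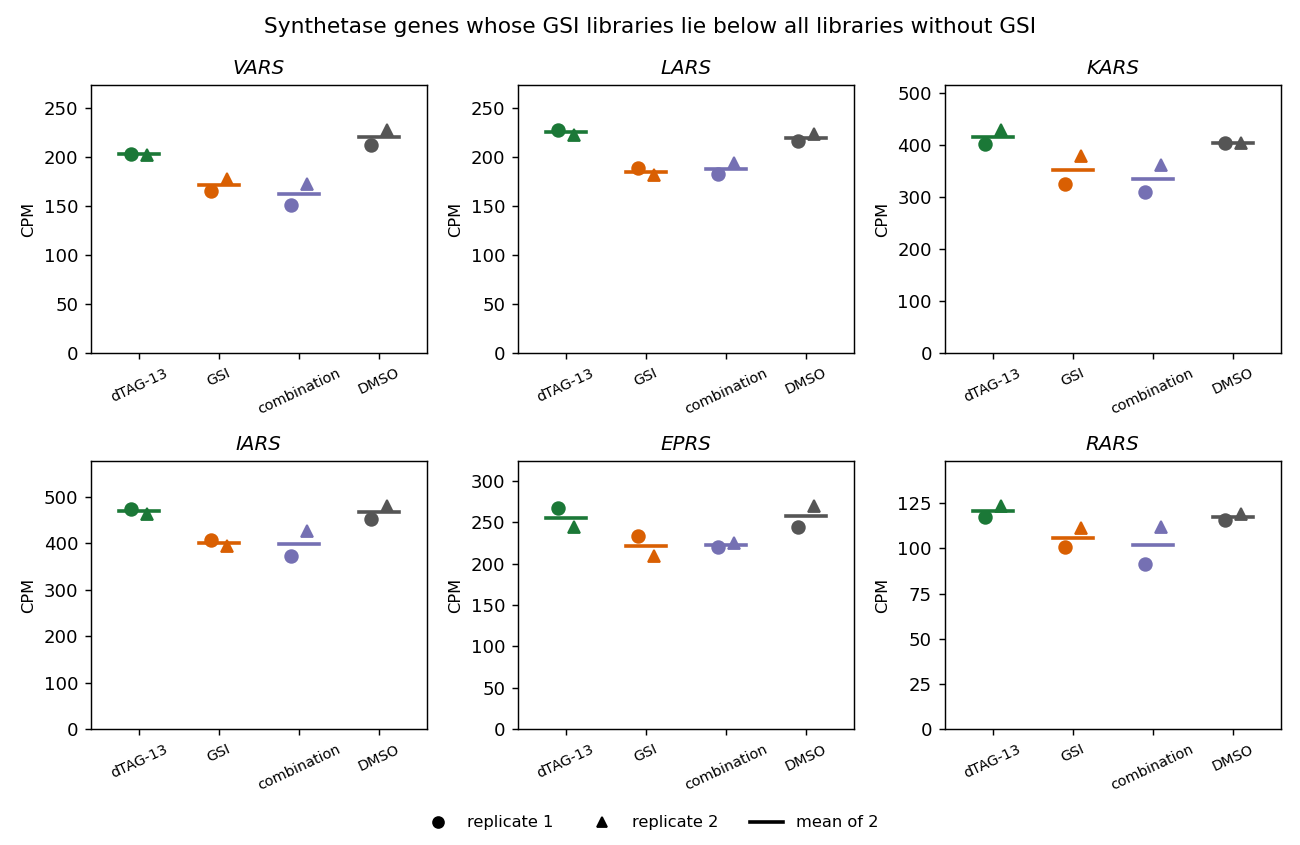
CPM (y axis, from 0) of the 6 synthetase genes whose libraries with GSI all lay below the libraries without it, by treatment. Points are single libraries, with circles for replicate 1 and triangles for replicate 2, and bars are means of 2, such as 162 CPM for VARS with the combination and 220.3 CPM with DMSO.

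The remaining 12 synthetases had averaged GSI effects of -0.18 (YARS) to 0.01 (DARS) on the log2 scale, and 0 were called by edgeR or DESeq2, with YARS alone at an unadjusted p under 0.05. DARS, for aspartate, had 191 and 174 CPM with dTAG-13, 190.2 and 177 CPM with GSI, and 181 and 176 CPM with the combination, against 183 and 172 CPM with DMSO, so its groups overlapped throughout. QARS, for glutamine, and CARS, for cysteine, had averaged log2 fold changes of -0.03 (95% interval -0.15 to 0.09) and -0.0023 (-0.14 to 0.13). As background, KARS, LARS, IARS, EPRS, RARS, MARS, QARS and DARS belong to the multi-synthetase complex and VARS binds elongation factor 1. MARS, for methionine, had an averaged log2 fold change of -0.11 (95% interval -0.24 to 0.02).

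In single comparisons, GSI libraries lay below both DMSO libraries for 19 of 35 members, 13 of them synthetases, where 20.9% of all genes tested did so, and above them for 2, where 22.6% did so. The combination libraries lay below DMSO for 10 members (20.5% of all genes) and above for 3 (21.6%). Against dTAG-13 the combination lay below for 12 members (21.3% of all genes) and above for 2 (22.2%). The 3 comparisons share libraries, so their counts are not separate evidence. The members' median log2 fold change was -0.13 for GSI against DMSO, -0.08 for the combination against DMSO and -0.10 for the combination against dTAG-13, while medians over all genes lay within 0.01 of 0. Without GSI replicate 1 and combination replicate 1 these 3 medians were -0.06, 0.01 and -0.02, so the lower median rested in large part on those libraries. Because they were chosen for low values of these same members, leaving them out raises the medians.

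With both libraries left out, each treatment with GSI had a single library, whose spread was taken to be that of the other groups. The averaged GSI effect was then -0.27 for VARS, -0.25 for LARS, -0.24 for EPRS and 0.31 for ASNS on the log2 scale. Below 0 lay 24 of 35 members and 8144 of 16104 genes. The 2 libraries left out were chosen because these members were low in them. For GSI against DMSO in that fit, the log2 fold change of VARS was -0.32.

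Promoter sequence was examined because ATF4 with a C/EBP partner binds a composite element with the core TGATGNAA, and MYC and its relatives bind the E-box CACGTG. RefSeq promoter windows (build GRCh38.p14, 250 bases before to 50 after a start site) were found for 29 of the 36 genes, partly under newer symbols such as AARS1 for AARS. PSPH, ALDH1L2, SLC7A11, DARS, LARS, VARS and YARS had none. Searched on both strands, TGATGNAA was present in at least 1 window of 12 of 29 genes (41.4%), against 4.46% of 27305 genes in the table, and in 26.1% of the members' windows, against 3.62% of 35116 windows. The genes were ATF3, CEBPG, CHAC1, ASNS, SLC3A2 and the synthetase genes AARS, CARS, GARS, IARS, MARS, NARS and TARS. The following stretches are shown because they hold that core in enzyme, effector, partner and synthetase genes, read 5′ to 3′ along the gene, with capitals for the core. The core is on the gene's own strand in ASNS, CEBPG and NARS and on the opposite strand in the others, where it appears in reverse complement.
ASNS, chr7:97872458-97872487, minus strand: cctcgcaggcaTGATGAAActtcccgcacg
CEBPG, chr19:33374060-33374089, plus strand: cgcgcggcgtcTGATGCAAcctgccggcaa
NARS, chr18:57621804-57621833, minus strand: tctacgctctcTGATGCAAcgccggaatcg
CHAC1, chr15:40953251-40953280, plus strand: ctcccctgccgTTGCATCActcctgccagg
AARS, chr16:70289675-70289704, minus strand: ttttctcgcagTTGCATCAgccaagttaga
CARS, chr11:3057407-3057436, minus strand: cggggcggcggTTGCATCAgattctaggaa
IARS, chr9:92293692-92293721, minus strand: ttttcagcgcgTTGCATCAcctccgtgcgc
MARS, chr12:57488053-57488082, plus strand: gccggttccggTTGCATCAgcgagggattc

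The E-box CACGTG was present in 3 of 29 genes (10.3%), against 8.77% of genes in the table, and does not overlap the other core. The 3 are shown because IARS, whose libraries with GSI lay below all others, was the gene that held both, with capitals for the E-box.
ATF4, chr22:39520466-39520493, plus strand: gaggagacggtCACGTGgtcgcggcgga
SLC7A5, chr16:87869621-87869648, minus strand: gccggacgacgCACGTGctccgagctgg
IARS, chr9:92293867-92293894, minus strand: ggttcgttttcCACGTGgaggcgcaaaa

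The 7 synthetase genes with TGATGNAA had a median averaged GSI effect of -0.11 on the log2 scale (-0.22 to -0.0023), against -0.14 (-0.26 to -0.03) for the 7 in the table without it and -0.22 (-0.34 to 0.01) for the 4 that were not in the table. A match describes these letters in these windows, and no binding was measured.

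The 6 regulators were not called in any comparison by edgeR or DESeq2, and ATF3 alone had an unadjusted p under 0.05. ATF4, the central factor of the response and given here for that role, had 744 and 815 CPM with dTAG-13, 603 and 734 CPM with GSI, and 671 and 761 CPM with the combination, against 769 and 739 CPM with DMSO. Both GSI libraries lay below those of DMSO and of dTAG-13, and the combination libraries overlapped those of each other group. The averaged log2 fold change was -0.15 for GSI (95% interval -0.32 to 0.02) and 0.07 for dTAG-13 (-0.10 to 0.24). ATF4 activity is set largely at translation, which RNA levels do not measure.

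ATF3, a stress-induced factor of the same family, had 9.63 and 10.7 CPM with dTAG-13, 10.9 and 11.5 CPM with GSI, and 8.89 and 9.21 CPM with the combination, against 10.6 and 10.8 CPM with DMSO. The combination libraries lay below those of each other group. The log2 fold change was -0.31 for the combination against GSI (SE 0.12, unadjusted p = 0.0291, adjusted p = 0.999 by edgeR's quasi-likelihood test) and -0.24 against DMSO (adjusted p = 0.474 by edgeR). ATF3 was the single member with both combination libraries below both GSI libraries, where 14% of all genes were.

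DDIT3, which encodes the pro-apoptotic factor CHOP, had 6.77 and 7.60 CPM with dTAG-13, 6.19 and 8.73 CPM with GSI, and 6.80 and 9.40 CPM with the combination, against 9.47 and 5.45 CPM with DMSO. The DMSO libraries bracketed all 6 treated libraries, and this spread, the reason it is named, left an averaged GSI interval of -0.29 to 0.48 on the log2 scale. ATF5, CEBPB and CEBPG, the last 2 being partners of ATF4, had averaged GSI effects of -0.09, -0.10 and -0.07, and their 95% intervals held 0.

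Among the effectors, CHAC1, an enzyme that degrades glutathione, had 7.83 and 7.92 CPM with dTAG-13, 6.01 and 7.14 CPM with GSI, and 6.98 and 8.92 CPM with the combination, against 7.05 and 6.63 CPM with DMSO. The dTAG-13 libraries lay above DMSO and close together, while the combination libraries overlapped those of every other group. CHAC1 had the largest log2 fold change of the members for dTAG-13, at 0.21 against DMSO (SE 0.16, 95% interval -0.14 to 0.56) and 0.24 averaged over both GSI states (adjusted p = 0.851 by edgeR's quasi-likelihood test).

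SESN2, a leucine sensor that restrains mTORC1, had 18.8 and 20.1 CPM with dTAG-13, 15.7 and 16.3 CPM with GSI, and 18.5 and 18.4 CPM with the combination, against 20.2 and 18.1 CPM with DMSO. The GSI libraries were the lowest 2 of the 8, and the combination libraries lay within the DMSO range. The log2 fold change was -0.25 for GSI against DMSO (adjusted p = 0.322 by edgeR's quasi-likelihood test) and -0.05 for the combination against DMSO. TRIB3, a pseudokinase that feeds back on ATF4, had an averaged GSI effect of -0.11 (95% interval -0.25 to 0.04).

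ASNS, asparagine synthetase, had an averaged GSI effect above 0, as 4 of 35 members did. It had 17.6 and 16.7 CPM with dTAG-13, 17.69 and 19.5 CPM with GSI, and 20.3 and 23.2 CPM with the combination, against 17.67 and 16.9 CPM with DMSO. Every library with GSI lay above every library without it, narrowly for GSI replicate 1, and ASNS was the only member of 35 to do so, where 7% of all genes tested did. The log2 fold change was 0.33 for the combination against DMSO (95% interval 0.09 to 0.58, adjusted p = 0.222), 0.35 for the combination against dTAG-13 (adjusted p = 0.206) and 0.23 averaged (SE 0.08, adjusted p = 0.113), none called by edgeR's quasi-likelihood test. With GSI replicate 1 and combination replicate 1 left out, the averaged effect of ASNS was 0.31. Those libraries were chosen because the members were low in them, so leaving them out raises the members' median. ASNS and PCK2 then lay above the 4 libraries without GSI in both remaining ones, as did 14.5% of all genes. For ASNS this only repeats the separation over all libraries, which leaving out libraries with GSI can hardly undo.

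PCK2, the mitochondrial enzyme that makes phosphoenolpyruvate, had 25.8 and 25.9 CPM with dTAG-13, 27.5 and 29.6 CPM with GSI, and 31.0 and 31.3 CPM with the combination, against 27.4 and 28.3 CPM with DMSO. The combination libraries were the highest 2 and the dTAG-13 libraries the lowest 2. Its log2 fold change was 0.27 for the combination against dTAG-13 (unadjusted p = 0.0139, adjusted p = 0.246 by edgeR's quasi-likelihood test) and 0.15 for the averaged GSI effect (adjusted p = 0.204 by edgeR).

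PHGDH, the first enzyme of serine synthesis, had 183 and 196 CPM with dTAG-13, 141 and 167 CPM with GSI, and 171 and 191 CPM with the combination, against 178 and 167 CPM with DMSO. The dTAG-13 libraries lay above DMSO, and the combination libraries above GSI. Its log2 fold change was 0.14 for dTAG-13 against DMSO (95% interval -0.08 to 0.35), -0.11 for the averaged GSI effect (-0.26 to 0.04) and 0.19 for the averaged dTAG-13 effect (SE 0.07, adjusted p = 0.658 by edgeR's quasi-likelihood test). PSAT1 and PSPH, the next enzymes, had averaged GSI effects of -0.20 (adjusted p = 0.0924 by edgeR) and -0.12 on the log2 scale, neither called by edgeR.

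SLC7A11, which imports cystine in exchange for glutamate, showed the widest contrast between GSI alone and the combination. It had 8.85 and 10.6 CPM with dTAG-13, 8.31 and 6.95 CPM with GSI, and 10.3 and 11.5 CPM with the combination, against 9.88 and 10.0 CPM with DMSO. The GSI libraries were the lowest 2 of the 8, and the combination libraries lay above DMSO. The log2 fold change was 0.51 for the combination against GSI (SE 0.15, unadjusted p = 0.00441, adjusted p = 0.711) and -0.38 for GSI against DMSO (SE 0.15, adjusted p = 0.262), neither called by edgeR's quasi-likelihood test.

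SLC7A5 and SLC3A2, which form the large neutral amino acid transporter together, had log2 fold changes of -0.21 and -0.23 for GSI against DMSO (adjusted p = 0.291 and 0.290 by edgeR's quasi-likelihood test). SLC7A5 had 642 and 639 CPM with dTAG-13, 571.2 and 570.8 CPM with GSI, and 603 and 644 CPM with the combination, against 633 and 689 CPM with DMSO. Its GSI libraries lay below all others, and the combination libraries overlapped those of DMSO.

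**Figure D4:**
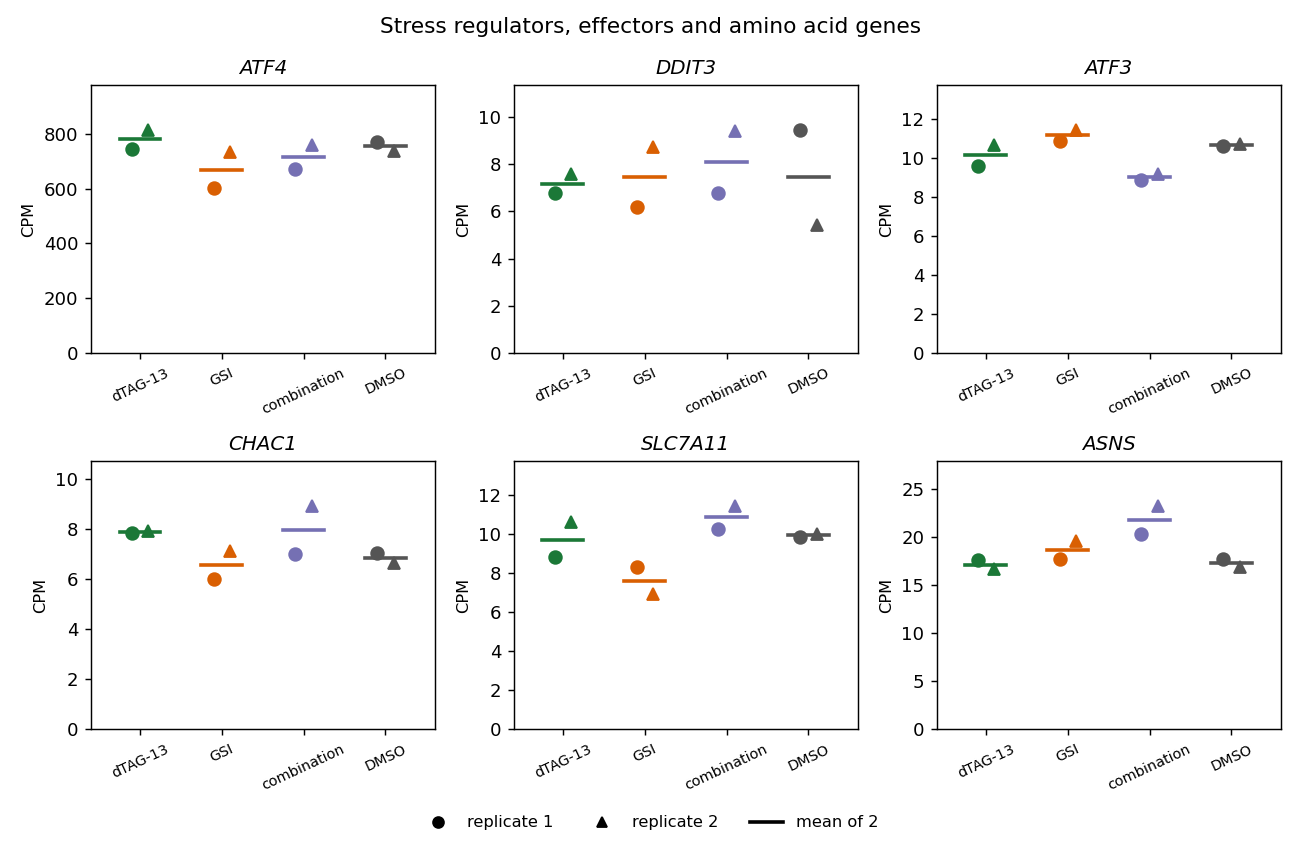
CPM (y axis, from 0) of 3 regulators, 1 effector, 1 transporter and 1 enzyme by treatment, with circles for replicate 1, triangles for replicate 2 and bars for means of 2. ASNS averaged 21.8 CPM with the combination and 17.3 CPM with DMSO, while the DMSO points of DDIT3, at 9.47 and 5.45 CPM, lie outside those of the other groups.

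dTAG-13 left few separations among these genes. Its libraries lay above both DMSO libraries for 5 of 35 members (CHAC1, PHGDH, AARS, GARS and NARS), where 17.7% of all genes did, and below for PCK2 and VARS, where 17.6% did. For 0 of 35 members did all 4 libraries with dTAG-13 lie on 1 side of the 4 without it, which 1.55% of all genes did on the low side and 1.07% on the high side. The effect of dTAG-13 averaged over both GSI states called 0 members by edgeR or DESeq2, where 0.499% of all genes were called by edgeR's quasi-likelihood test, and 3 members had an unadjusted p under 0.05 (6.08% of all genes). The members' median was 0.03 on the log2 scale, and over the 18 synthetases the averaged effects ran from -0.10 for VARS to 0.07 for AARS.

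Beside GSI alone, adding dTAG-13 gave 0 called members by either tool, where 0.0575% of all genes were called by edgeR, and 3 members with an unadjusted p under 0.05, where 4.14% of all genes had one. These were SLC7A11 and PHGDH, with higher values, and ATF3, with lower ones. The combination libraries lay above both GSI libraries for 8 of 35 members, where 11.8% of all genes did. These were TRIB3, SESN2, ASNS, PHGDH, PCK2, SLC7A11, SLC7A5 and AARS, all but AARS outside the synthetases. Of the 17 members that are not synthetases 15 had a log2 fold change above 0, as did 7635 of all 15646 genes tested. The median was 0.12 for those 17 and 0.00 for the 18 synthetases. Combination replicate 1 lay below replicate 2 for 33 of 35 members, and without it the median over all 35 was 0.15, against 0.04 with it. Without both combination replicate 1 and GSI replicate 1 the median was 0.08. There 31 of 35 members lay above 0, as did 8092 of 16104 genes, so the contrast with the synthetases rested in part on those libraries.

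Whether each drug acts alike with and without the other was tested as a departure, the combined log2 fold change minus the added fold changes of the single drugs. It called 0 members by edgeR or DESeq2, where 0% of all genes were called by edgeR's quasi-likelihood test. At an unadjusted p under 0.05 there was 1 member, where 1.66% of all genes were. That member was SLC7A11, at 0.54 (SE 0.21, 95% interval 0.10 to 0.99), and ASNS and PCK2 followed at 0.24 (-0.11 to 0.59) and 0.23 (-0.05 to 0.52). For VARS and LARS the departures were 0.04 (-0.23 to 0.30) and -0.01 (-0.25 to 0.22). The intervals are wide beside the single effects, so a departure of that size was not detectable for most members with 2 libraries a group.

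**Figure D5:**
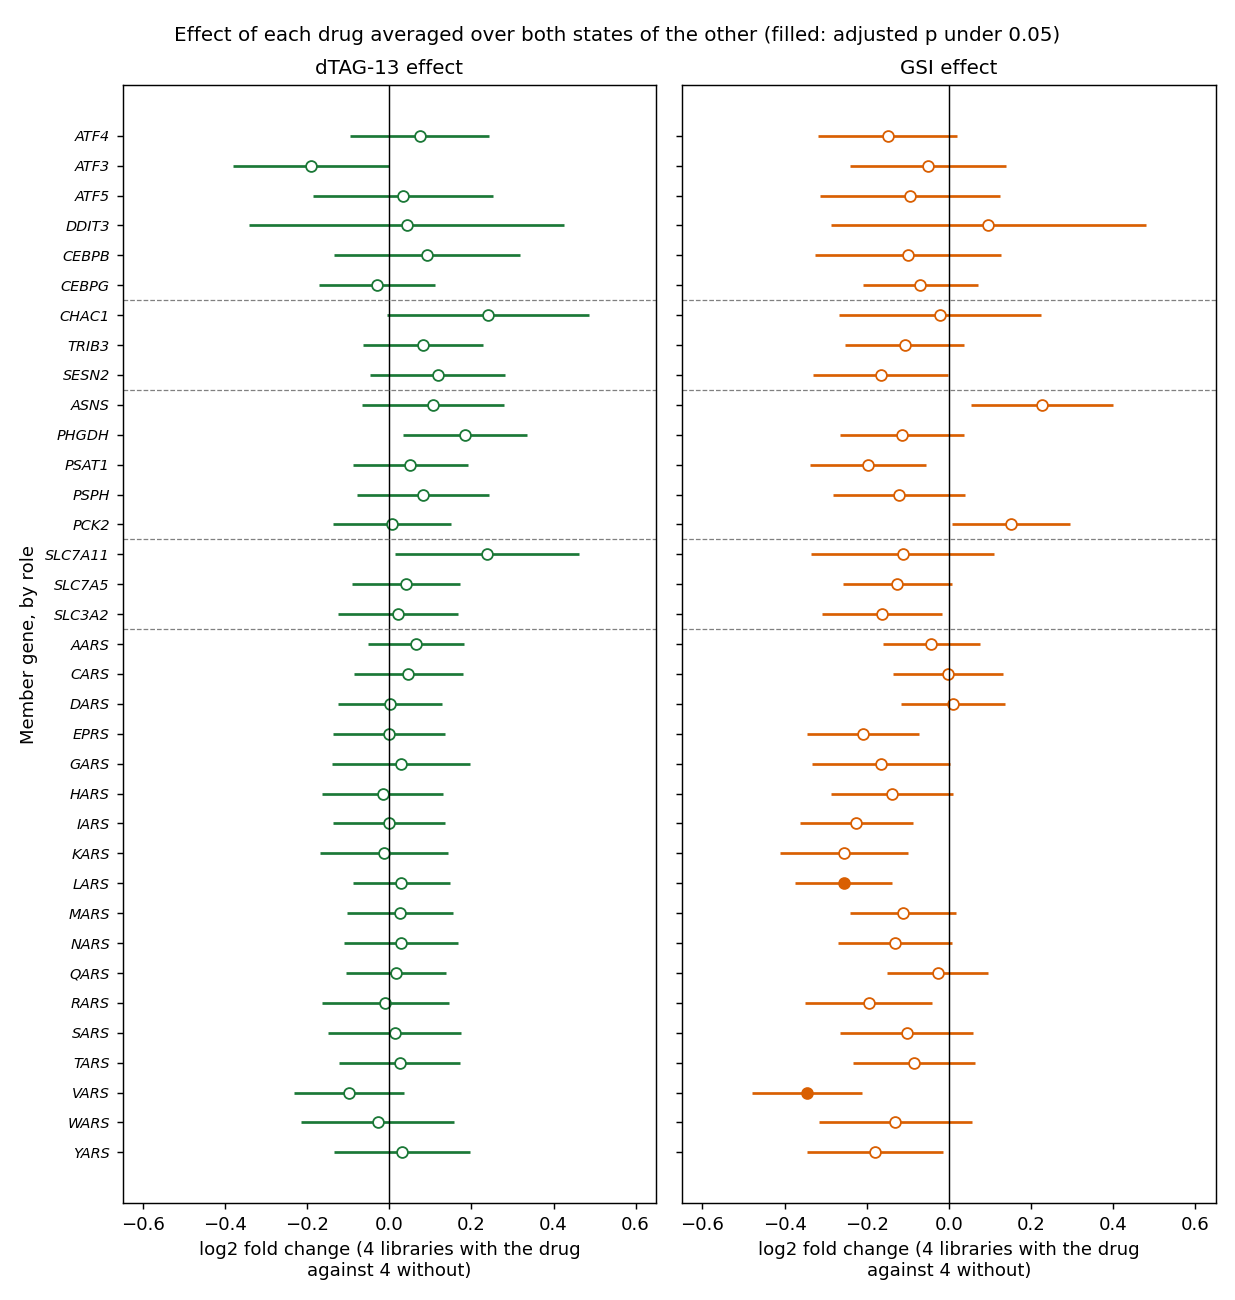
Log2 fold change (x axis) of each tested gene for dTAG-13 and for GSI, each averaged over both states of the other drug (4 libraries with the drug against 4 without), with 95% intervals. Filled points are the genes called, VARS at -0.34 and LARS at -0.26, both for GSI, and ASNS at 0.23 is the gene farthest to the right in the GSI panel.

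Other genes of these pathways were read in the averaged GSI effect by edgeR's quasi-likelihood test, in which 3.56% of all genes were called lower and 7574 of 15646 lay below 0. Of 6 other cytosolic synthetase and scaffold genes 2 were called, both lower. AIMP2, a scaffold of the multi-synthetase complex, fell by 0.41 (adjusted p = 0.0171 by edgeR), and FARSB, a subunit of phenylalanyl-tRNA synthetase, fell by 0.32 (adjusted p = 0.0452 by edgeR). AIMP2 had 55.0 and 62.8 CPM with dTAG-13, 41.3 and 48.1 CPM with GSI, and 38.0 and 49.4 CPM with the combination, against 61.2 and 56.8 CPM with DMSO. Without the 2 low libraries, GSI replicate 1 and combination replicate 1, AIMP2 fell by 0.27 and FARSB by 0.18.

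Of 17 mitochondrial tRNA synthetase genes 4 were called lower and 0 higher, where 3.56% of all genes were called lower. Below 0 lay 16 of 17, as did 7574 of 15646 genes, and the median of the 17 was -0.17. The 4 called were MARS2, which fell by 0.36 on the log2 scale (adjusted p = 0.0187 by edgeR), YARS2 by 0.35 (0.0308), LARS2 by 0.23 (0.0464) and VARS2 by 0.21 (0.0370). Without the 2 low libraries MARS2 fell by 0.36, YARS2 by 0.22, LARS2 by 0.19 and VARS2 by 0.19. The median of the 17 was then -0.14 with 14 of 17 below 0, as were 8144 of 16104 genes. Of 21 other reported ATF4 targets 3 were called lower and 0 higher, with 14 below 0, 7 above 0 and a median of -0.07. CBS, the first enzyme of transsulfuration, fell by 0.35 (adjusted p = 0.0105 by edgeR), and the proline synthesis enzymes PYCR1 and ALDH18A1 fell by 0.37 (0.0283) and 0.25 (0.0150). ALDH18A1 had 168 and 170 CPM with dTAG-13, 139.8 and 139.2 CPM with GSI, and 141 and 147 CPM with the combination, against 167 and 168 CPM with DMSO, with no overlap between libraries with and without GSI. Without the 2 low libraries CBS fell by 0.28, PYCR1 by 0.21 and ALDH18A1 by 0.23, and the median of the 21 was -0.10.

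Of 8 tested genes for eIF2alpha, its kinases, its phosphatase and the GCN2 activator GCN1L1, 0 were called by edgeR in the fit of all libraries. There 5 lay below 0 and 3 above. An unadjusted p under 0.05 was found for 4 of them, as for 21.9% of all genes. The smallest p were those of GCN1L1 at -0.17 (adjusted p = 0.0995 by edgeR) and EIF2S1, which encodes eIF2alpha, at -0.17 (adjusted p = 0.163 by edgeR). The others were EIF2AK4, the kinase GCN2, at -0.14 (adjusted p = 0.178 by edgeR) and PPP1R15A, a stress-induced subunit of the eIF2alpha phosphatase, which lay the other way at 0.19 (adjusted p = 0.179 by edgeR). PPP1R15A had 15.7 and 15.1 CPM with dTAG-13, 17.4 and 19.0 CPM with GSI, and 16.9 and 18.5 CPM with the combination, against 16.4 and 15.8 CPM with DMSO. Its libraries with GSI all lay above those without. Without the 2 low libraries GCN1L1 lay at -0.21, EIF2S1 at -0.08 and PPP1R15A at 0.25.

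In the authors' deposited tables of each treatment against DMSO, which share the DMSO libraries, VARS was the called member. The authors' deposited table for the combination gave it a log2 fold change of -0.45 and an adjusted p of 0.00523, where 1.52% of genes with an adjusted p were under 0.05. The authors' deposited table for GSI gave -0.37 and 0.0396, where 1.92% were, and the authors' deposited table for dTAG-13 had 0 members under 0.05, where 0.274% were.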

How the data were processed

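Strand-specific paired-end RNA sequencing of 8 libraries was processed by the authors with STAR 2.5.2a, featureCounts and DESeq2 1.12.4 on hg19, per the submitters' processing notes. How strand was handled in counting, and which annotation was used, is not given in the sources used here. Reads of overlapping genes and of near copies such as PSPH and SLC7A5 pseudogenes may be shared. The authors deposited raw counts per gene and 3 tables of 1 treatment against DMSO. Those deposited tables hold a baseMean signal (scaled counts), the authors' log2 fold changes with their errors, a score (the fold change over its error) and each p-value, raw and adjusted.

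Counts were filtered with filterByExpr, scaled by TMM and fitted with edgeR 4.0.16 in R 4.3.3, in 1 robust quasi-likelihood model of 4 groups over 8 libraries with 4 residual degrees of freedom (common biological coefficient of variation 0.0804). Each of 8 comparisons was tested with a 2-sided F-test, adjusted by Benjamini-Hochberg over 15646 genes at a threshold of 0.05. "Called" means past that threshold. Errors are SE, intervals are 95%, and SD is over 2 libraries. Tested genes held at least 99.89% of each library's counts. Members called or among the 3 largest log2 fold changes of a comparison are given in full, and exceptions are marked. Members, lists and comparisons were chosen with earlier results of these data known. Exon lengths for levels per kilobase are from GENCODE v29, and no gene coordinates of the counts are given because the reference is of another build. Alternatives were DESeq2 size factors, no filter, DESeq2 1.42.0 (Wald test), a replicate block, the compared groups alone and leaving out each library, with 1 added after seeing the data. The test was checked on simulated data.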

Additional observations from a re-analysis of the deposited data

How the results depend on the processing

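Of 264 alternative values for the members named by rule, 244 kept their direction and side of the threshold, 12 passed it in place of missing it, 8 missed it in place of passing it, and 0 changed sign. VARS in the combination against DMSO was called in 6 of 6 other settings but in 1 of 4 with a library left out. VARS and LARS in the averaged GSI effect were called in 5 of 5 other settings, and in 7 and 4 of 8 with a library left out. The other settings counted here include the fit without both GSI replicate 1 and combination replicate 1, which was chosen after seeing the data.

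With no filter on low counts, 1 member was called in GSI against DMSO, 2 in the combination against dTAG-13 and 6 in the averaged GSI effect. That setting tested 30406 genes, against 15646 as reported, so the counts of called genes have unlike totals. Genes called were then 51 for dTAG-13 against DMSO (3 as reported), 660 for GSI (272), 532 for the combination (205) and 563 for the combination against dTAG-13 (189). They were 59 for the combination against GSI (9), 1815 for averaged GSI (1086) and 165 for averaged dTAG-13 (78). The Wald test of DESeq2 called 1 member for GSI against DMSO, where it called 336 of 15646 genes. For averaged GSI it called 4 members and 1057 of 15646 genes. It called 23 genes each for dTAG-13 against DMSO and the combination against GSI. Fits of the compared groups alone called 71 genes for dTAG-13 against DMSO, 96 for the combination against dTAG-13 and 3 for the combination against GSI.

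With a replicate block, 1 member was called in GSI against DMSO, 1 in the combination against dTAG-13 and 7 in averaged GSI (EPRS, IARS, KARS, LARS, PSAT1, RARS and VARS). Genes called overall were 23, 559, 413, 476, 34, 1822 and 135, in the order of comparisons given above. Deviations of same-numbered libraries correlated at 0.120 to 0.197 in the 3 pairs of treated groups and at -0.0974 to -0.0232 in the 3 with DMSO, over 15646 genes, so the numbers were not taken as pairs.

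Leaving out 1 library at a time, members called ran from 0 to 1 for the combination against DMSO and from 0 (without DMSO replicate 2) to 8 (without combination replicate 2) for averaged GSI. Genes called overall ran from 0 to 2 for dTAG-13 against DMSO, 32 to 232 for GSI, 38 to 258 for the combination, 43 to 264 against dTAG-13, 6 to 7 against GSI, 0 to 1 for the departure, 342 to 1524 for averaged GSI and 14 to 78 for averaged dTAG-13. The members' median ran from -0.212 to -0.0540 for GSI, -0.168 to 0.0133 for the combination, -0.192 to -0.0266 against dTAG-13, -0.0302 to 0.146 against GSI and -0.0595 to 0.119 for the departure.

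Without GSI replicate 1 and combination replicate 1, an alternative chosen after seeing the data, 2 members were called for GSI and 4 for averaged GSI. Genes called overall were 626 for GSI, 416 for the combination, 368 against dTAG-13, 1 for the departure and 143 for averaged dTAG-13, and the members' medians were -0.0572 for GSI, 0.0132 for the combination and -0.0219 against dTAG-13. The cause of these shifts was not tested. Log2 fold changes of the 4 for averaged GSI were -0.27 for VARS, -0.25 for LARS, -0.24 for EPRS and 0.31 for ASNS. ASNS thus lay the other way. In that fit GSI and the combination had a single library each, so no conclusion is drawn from its counts of called genes. With 2 libraries a group, changes of the size seen in most members could not be told from the spread between replicates.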

Other observations

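Genes of neighbouring stress responses were read beside these members. Of 8 tested targets of NRF2, the factor of oxidative stress, 0 were called in the averaged GSI effect by edgeR's quasi-likelihood test or in the other comparisons. In the averaged GSI effect 2 of 8 had an unadjusted p under 0.05, as did 21.9% of all genes. Below 0 lay 7 of 8, as did 7574 of 15646 genes, and the median log2 fold change of the 8 was -0.09. The smallest p were those of SRXN1 and GCLC. SRXN1, which reduces oxidised peroxiredoxin, lay at -0.39 (adjusted p = 0.193 by edgeR). GCLC, the catalytic subunit that starts glutathione synthesis, lay at -0.13 (adjusted p = 0.227 by edgeR). With GSI replicate 1 and combination replicate 1 left out, 5 of 8 lay below 0, as did 8144 of 16104 genes. The median was then -0.11, with SRXN1 at -0.14 and GCLC at -0.13.

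Of 8 chaperone genes of the endoplasmic reticulum, 0 were called in any comparison by edgeR in the fit of all libraries. There their median in the averaged GSI effect was -0.01, with 4 above and 4 below 0 and 1 gene at an unadjusted p under 0.05. In the fit of all libraries DNAJB9 and CRELD2 had the smallest p, at log2 fold changes of 0.20 (adjusted p = 0.215 by edgeR) and 0.13 (adjusted p = 0.484 by edgeR). With GSI replicate 1 and combination replicate 1 left out, all 8 lay above 0 in the averaged GSI effect, as did 7960 of 16104 genes. The median was then 0.10, with CRELD2 at 0.28.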
